A study of Mus musculus with 3 samples.

Results

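Peaks of MTR4 LACE-seq were examined on 8 genes of structured noncoding RNAs: Rn7sk, Rmrp, Rpph1, Rn7s1, Rn7s2, Rny1, Rny3 and Terc. A peak was assigned to a gene when its midpoint lay in the RefSeq gene body or within 100 nt on either side. By this rule 21 of the 15769 peaks in the deposited list (0.133%) belonged to the 8 genes, and 7 of the 8 held at least 1 peak. LACE-seq maps the RNA that ultraviolet light has crosslinked to a protein, through the ends of complementary DNA made from the precipitated fragments. The precipitation was made with an MTR4 antibody from KIT(+) cells of Mtr4WT testis, taken from mice at postnatal day 8 (P8) and irradiated with UV-C at 400 mJ. The labels describe 3 replicates of this single group, and no control precipitation, input library or second genotype stood beside them.

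Results rest on 1 list, recorded under replicate 3. It gives the position and a strand sign of each peak on mm10, but no score, read count or p-value, so the depth behind a peak is unknown and abundant RNA could not be told apart from preferred contacts of MTR4. Its deposited name reads as if replicates had been merged, duplicate reads removed and peaks called with Piranha. The labels do not state any of this, so whether the peaks stand for 1 replicate or for all 3 is not known, nor whether the replicates came from separate animals. Intervals below are 95% exact binomial intervals that cover counting error only. All coordinates were multiples of 20 nt, which is the finest placement the list allows. The list holds no expression values. As a description of the sorted cells, peaks were found at Kit (2), Dmrt1 (2), which Sertoli cells express too, and Ddx4 (1), but also at the Sertoli cell gene Clu (2) and the Leydig cell gene Cyp17a1 (1), and at none of Stra8, Sox9, Amh and Star. Kit, Dmrt1 and Ddx4 are 54301 to 98711 nt long, and the genes without a peak 2440 to 19182 nt. Clu (13066 nt) and Cyp17a1 (5836 nt) held peaks though short. Of all protein-coding genes 26.2% held a peak. The part of length was not tested, and these counts do not identify the cell type.

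The 8 RNAs are the catalytic or scaffold cores of ribonucleoprotein particles. 7SK RNA (Rn7sk) holds the elongation kinase P-TEFb in an inactive store in the nucleus. Rmrp is the RNA of RNase MRP, which cuts ribosomal RNA precursors, and Rpph1 the RNA of RNase P, which removes the leader of transfer RNA precursors. Rn7s1 and Rn7s2 encode the RNA of the signal recognition particle (SRP), which directs ribosomes to the endoplasmic reticulum. The Y RNAs Rny1 and Rny3 bind the Ro60 protein, and Terc carries the template of telomerase. All but Terc are made by RNA polymerase III, whereas Terc is made by RNA polymerase II. MTR4 is an RNA helicase that unwinds nuclear RNA for the exosome, a complex that degrades or trims RNA from its 3′ end.

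None of the 8 genes had an entry of its own in the RefSeq promoter table (GRCm38.p6), and no genome sequence was used. The 5′ part of Rpph1 could nevertheless be read, because the promoter window of the neighbouring gene Parp2 (chr14:50807666-50807965) reaches 106 nt into it. Rpph1 and Parp2 are known as a divergent pair that share the DNA between them, Parp2 being annotated on the plus strand, so Rpph1 is read here on the minus strand. The stretch below is shown because a peak lies wholly inside it, and the capitals mark the 40 nt of that peak (chr14:50807701-50807740, nucleotides 32 to 71 of the annotated RNA, 65.0% G or C).
Rpph1, nucleotides 1 to 106: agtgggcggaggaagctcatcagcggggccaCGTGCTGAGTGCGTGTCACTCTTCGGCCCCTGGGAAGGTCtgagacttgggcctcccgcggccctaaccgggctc
The 194 nt upstream of Rpph1 (chr14:50807772-50807965, minus strand) held no peak. They are shown for contrast, and the capitals mark a match to the octamer ATGCAAAT, a motif found in the distal elements of several polymerase III promoters.
Upstream of Rpph1: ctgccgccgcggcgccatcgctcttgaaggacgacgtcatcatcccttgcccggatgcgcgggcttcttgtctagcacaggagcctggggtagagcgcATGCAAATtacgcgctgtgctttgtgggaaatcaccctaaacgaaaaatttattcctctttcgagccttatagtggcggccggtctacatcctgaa

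Near Rmrp, the promoter window of the adjoining gene Ccdc107 (chr4:43493115-43493414, plus strand) begins 56 nt beyond the end of Rmrp and also held no peak. It contains the same octamer, in capitals in the stretch chr4:43493258-43493297.
Beyond Rmrp: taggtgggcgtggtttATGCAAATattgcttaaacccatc
Searched on both strands, ATGCAAAT occurred in 570 of all 32851 RefSeq promoter windows of 300 nt (1.74%). It was absent, as spelled, from the window of C920006O11Rik that begins 31 nt beyond Rn7sk and held no peak either. A match describes these letters only. No sequence was read for the other peaks.

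Rn7sk and Rmrp carried the most peaks, 5 each. Rn7sk (gene 19817, mm10 chr9:78175302-78175633, 332 nt) held peaks at 78175301 to 78175360, 78175381 to 78175420, 78175441 to 78175460, 78175501 to 78175540 and 78175581 to 78175600. They were spread over most of the gene with gaps of 20 to 40 nt, and together they covered 179 nt, 53.9% of it. All 5 had the plus sign. Rmrp (gene 19782, chr4:43492785-43493059, 275 nt) held peaks at 43492781 to 43492800, 43492841 to 43492860, 43492921 to 43492940, 43492961 to 43492980 and 43493001 to 43493040. These were also spread over most of the gene, with gaps of 20 to 60 nt, covered 42.2% of its length and all had the plus sign. Per length of gene body, Rmrp had 18.2 peaks per kb and Rn7sk 15.1.

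Rpph1 (gene 85029, chr14:50807447-50807771, 325 nt) held 3 peaks of 40 nt each. Besides the one printed above they lay at 50807441 to 50807480 and 50807521 to 50807560. A stretch of 140 nt between the printed peak and the next held none, so the peaks of Rpph1 fell into a part near the 5′ end and a part near the 3′ end, with 35.1% of the gene covered. All 3 had the plus sign.

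The SRP RNA genes Rn7s1 (gene 103948, chr12:69159295-69159593) and Rn7s2 (gene 103949, chr12:69361183-69361481) are copies of 299 nt that lie 202 kb apart, and each held 3 peaks. At Rn7s1 the peaks were at 69159261 to 69159280, 69159341 to 69159400 and 69159501 to 69159520, all with the minus sign. The first of these lay outside the annotated gene, and it was the only one of the 21 peaks whose midpoint fell in a flank. At Rn7s2 the peaks were at 69361181 to 69361220, 69361341 to 69361400 and 69361421 to 69361440, all with the plus sign. Reads of near-identical copies can map to either gene, so the copy from which each peak came is uncertain.

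Read in the direction of the transcript, the peaks of the SRP copies overlapped in part. The direction of transcription is not given for the 8 genes in the gene table, and it was taken as opposite to the sign. That reading comes from genes whose strand the promoter table does give: in the 8 genes of at most 50 kb with 7 or more peaks, all 97 peaks had the sign opposite to the annotated strand. The share was 84.2% of the peaks in the 17 such genes with 5 or more, 70.1% in the 141 with 3 or more and 54.0% in the 3073 with 1 or more. These sets are nested, so genes with more peaks raise each share. Of the 146 peaks in the 17 genes 123 had the opposite sign, and 97 of these 123 came from the 8 genes. Among genes with 5 peaks or more but fewer than 7, the share was therefore well below 84.2%. Where it rests on the sign alone, the direction is therefore uncertain for genes with 3 or 5 peaks. The sign of a lone peak says little about it. On this reading Rn7s1 was covered at nucleotides 47 to 106 and 207 to 226, and Rn7s2 at 42 to 61, 82 to 141 and 262 to the end. The copies shared 40 covered positions, 50.0% of those covered in Rn7s1 and 33.9% of those covered in Rn7s2. Unrelated placement would give shares near the covered part of the other copy, 39.5% for Rn7s2 and 26.8% for Rn7s1. Whether the overlap exceeds this was not tested. The widest peak of each was 60 nt, with its midpoint at 0.253 of the gene length in Rn7s1 and at 0.37 in Rn7s2. With the gene cut into 3 equal parts, these lie in the first and the middle part.

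The Y RNA genes held 1 peak each, of 20 nt. At Rny1 (gene 19872, chr6:47788070-47788180, 111 nt) it lay at 47788061 to 47788080 across the end of the annotated gene, with the plus sign. At Rny3 (gene 19874, chr6:47781624-47781724, 101 nt) it lay at 47781661 to 47781680, inside the gene, with the minus sign. The genes are 6346 nt apart. Terc (gene 21748, chr3:96414437-96414833, 397 nt), the longest of the 8, held 0 peaks. A count of 0 among 15769 peaks allows up to 3 peaks, a share of 0.019%, so a contact of MTR4 with telomerase RNA was not detected in this list, which does not show that it is absent.

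**Figure D1:**
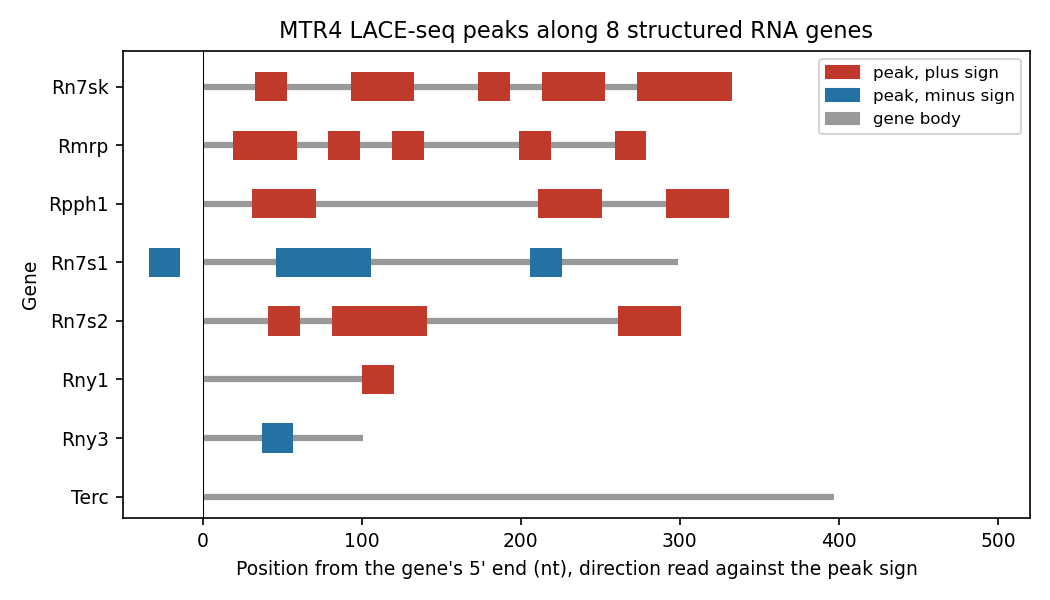
Position of each peak along the 8 genes, in nt from the 5′ end, with the direction of transcription read against the sign of the peaks. Each grey line is a gene body, drawn for Terc without a direction; red blocks are peaks with the plus sign and blue blocks peaks with the minus sign. Rn7sk and Rmrp carry 5 peaks each, spread over most of their length, and Terc carries none.

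Peaks were close to the genes or on them. Within 2 kb of the 8 genes there was no peak besides the 21. Within 10 kb there was also none around Rn7sk, Rmrp, Rpph1, Rn7s1 and Rn7s2, and the nearest other peak lay 169 kb from Rn7sk, 97.8 kb from Rn7s1, 23.0 kb from Rmrp, 21.8 kb from Rpph1 and 11.0 kb from Rn7s2. The genes nearest to these 5 held 0 peaks in their bodies, although several lie very close by. C920006O11Rik, a long noncoding gene, lies 281 nt from Rn7sk, Ccdc107 281 nt from Rmrp, Parp2, a DNA repair enzyme gene, 126 nt from Rpph1, and Rps29, a ribosomal protein gene, 109 nt from Rn7s1. On their other sides the nearest genes Cilk1, Sit1, Ccnb1ip1, Lrr1, Nemf and Gm18113 also held 0.

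The surroundings of the Y RNA genes and of Terc were different. Rny1 had 3 other peaks within 10 kb, the peak of Rny3 among them, and Rny3 had 4. Rpl31-ps7, the pseudogene between them, and the outer neighbours Pdia4 and Gm52862 held 0 in their bodies. Terc had 6 peaks within 10 kb, the nearest 4.37 kb away. Of these, 1 lay in the transfer RNA gene n-THgtg6 and 2 in the small nuclear RNA gene Gm24136, which are the genes on either side of Terc.

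**Figure D2:**
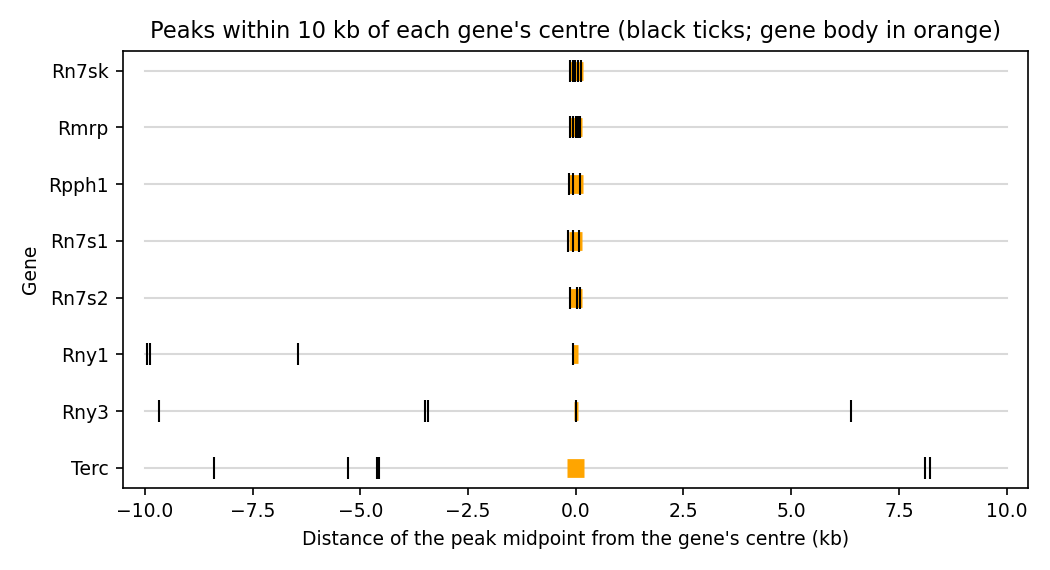
Midpoints of all peaks (black ticks) within 10 kb of the centre of each gene, whose body is drawn in orange; the horizontal axis is the distance from the centre in kb. Around Rn7sk, Rmrp, Rpph1, Rn7s1 and Rn7s2 every tick lies on or beside the gene, whereas the ticks around Terc lie 4.37 kb or more away.

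Measured against the density of peaks on and around them, 5 of the 8 genes held more than expected. The number expected in each window was its length times the higher of the density on the chromosome and within 500 kb on either side. That density counted the peaks of the tested gene too, which raises the number expected and lowers the fold. Rn7s1 and Rn7s2, 202 kb apart, each also counted the peaks of the other, so their folds are not independent. The test was a 1-sided exact Poisson test with Benjamini-Hochberg adjustment over all 49943 genes of the table. Rn7sk held 5 peaks where 0.00745 were expected, a 672-fold excess (adjusted exact Poisson p = 1.1e-09). Rmrp was at 619-fold (adjusted exact Poisson p = 1.4e-09) and Rpph1 at 408-fold (adjusted exact Poisson p = 8.0e-05). Rn7s1 and Rn7s2 were each at 668-fold (adjusted exact Poisson p = 2.4e-05). Rny1 and Rny3, with 1 peak each, were at 61.8-fold and 62.7-fold, short of the threshold (adjusted exact Poisson p = 0.7 for both), nor did Terc with 0 peaks where 0.031 were expected. Of all genes tested 0.368% passed, and 1.88% of the 4087 other small RNA genes of at most 500 nt. The test treats neighbouring peaks as independent, which peaks on a 20 nt grid within 1 RNA are not. When peaks of the same sign less than 100 nt apart were joined, Rn7sk and Rmrp became 1 peak each and no longer passed (adjusted exact Poisson p = 0.42 and 0.45). Rn7s1 kept 2 peaks and passed (adjusted exact Poisson p = 0.011), but its largest gap was exactly 100 nt, at the boundary of this rule. When only peaks of 40 nt or wider were kept, Rmrp and Rn7s1 kept 1 peak each and fell short as well (adjusted exact Poisson p = 0.35 and 0.75), at folds of 2110 and 668 that were no lower than before.

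Holding several peaks was uncommon among other small RNA genes. At least 1 peak was found in 7 of the 8 genes (87.5%, interval 47.3 to 99.7), against 15.8% of all genes of the table and 11.7% of the 4087 other small RNA genes. At least 3 peaks were found in 5 of the 8, against 0.71% of the other small RNA genes, 29 in number. None of those held 5, as Rn7sk and Rmrp did. These counts describe 8 genes listed with earlier results of the same data known, and no test was made of the list.

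By class, the genes closest to the 8 in how often they held a peak were those of ribosomal RNA, mostly 5S, with a peak in 59 of 63 (93.7%, interval 84.5 to 98.2). Of the 63, 47 held exactly 2 peaks. Reads of near-identical copies can map to any of them, as for the SRP genes, so these genes may not be independent. Their intervals, here and below, may therefore be too narrow. Transfer RNA genes had a peak in 116 of 408 (28.4%), other small nuclear RNA genes in 153 of 1003 (15.3%), small nucleolar RNA genes in 112 of 1340 (8.36%) and microRNA genes in 31 of 1228 (2.52%). Per kb of gene body the 8 genes held 9.35 peaks, ribosomal RNA genes 10.6, transfer RNA genes 2.86, small nuclear RNA genes 1.80 and small nucleolar RNA genes 0.563. Ribosomal RNA genes nevertheless differed in how many peaks a gene held: 1 of the 63 had 3 or more. The other genes of at most 500 nt with the most peaks, 4 each, were the small nuclear RNA genes Gm25939, Gm24265, Gm26316 and Gm26444. A further 28 genes of at most 500 nt held 3, of which 22 were small nuclear RNA genes. This count takes in genes of any type, pseudogenes included, and so goes beyond the small RNA genes counted above. Gm24830 was taken from these by its summed peak width and then its name. All peaks of the 5 named genes had the minus sign. They are 141 to 191 nt long, and 2 or 3 of the peaks of each had their midpoint in the gene body. Length also differs between the classes, with a median of 299 nt for the 8 genes and 107 nt for small nuclear RNA genes, and its part in the counts was not tested. Of the 8 other small RNA genes of 250 to 400 nt, 1 held a peak.

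**Figure D3:**
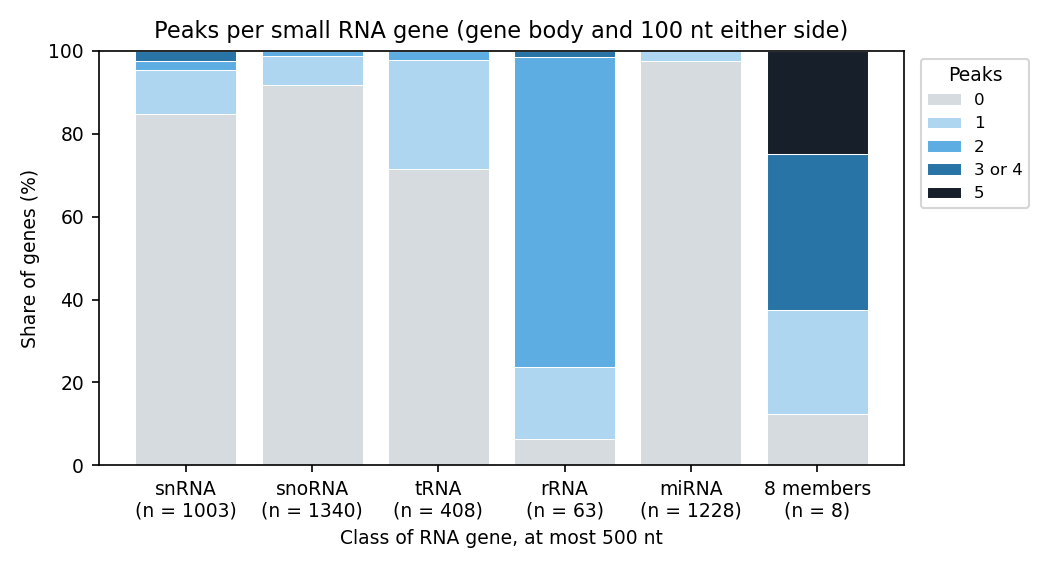
Share of genes (%) with 0, 1, 2, 3 or 4, or 5 peaks in the gene body and 100 nt either side, for 5 classes of small RNA genes and the 8 genes described here; n is the number of genes. The 8 genes have the darkest column, with 5 of 8 at 3 peaks or more, while ribosomal RNA genes mostly hold 1 or 2.

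Peaks on these RNAs were often wide. Of the 21, 10 were 40 nt or wider (47.6%, interval 25.7 to 70.2), against 3.49% (interval 3.20 to 3.79) of the 15119 peaks outside small RNA genes. Rpph1 had 3 wide peaks of 3, Rn7sk 3 of 5, Rn7s2 2 of 3, and Rmrp and Rn7s1 1 each, while both Y RNA peaks were 20 nt. The widest was 60 nt, found at Rn7sk, Rn7s1 and Rn7s2. The share was near that of ribosomal RNA genes (44.4% of 108 peaks, interval 34.9 to 54.3) and above that of small nucleolar (9.30%) and transfer RNA genes (8.80%). The interval overlapped that of small nuclear RNA genes (28.4% of 229 peaks, interval 22.6 to 34.7). Peaks within 1 gene share their RNA, so these intervals are narrower than the true uncertainty.

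**Figure D4:**
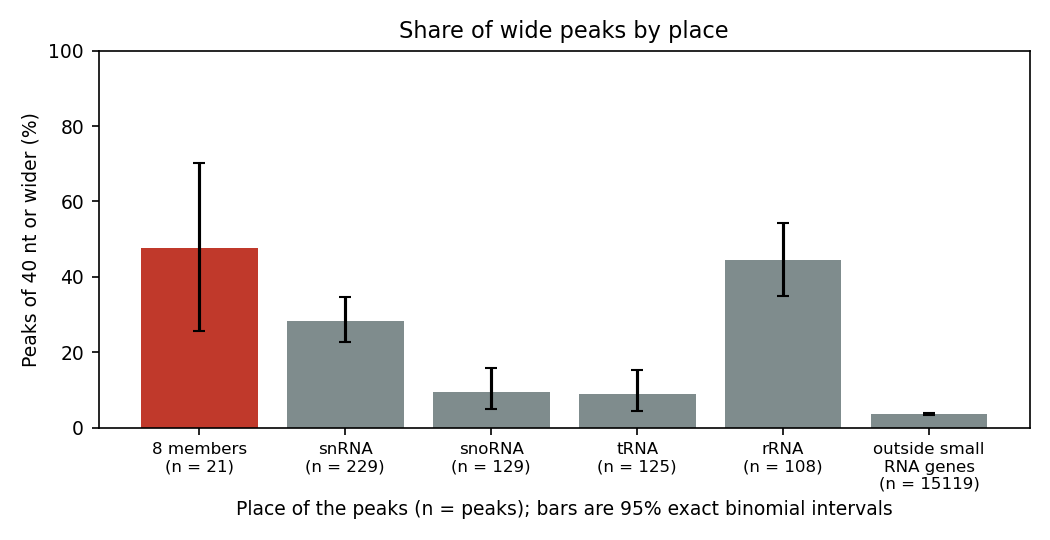
Share of peaks (%) that are 40 nt or wider, at the 8 genes (red), at 4 classes of small RNA genes and outside small RNA genes; n is the number of peaks and error bars are 95% exact binomial intervals. The 8 genes stand at 47.6% and ribosomal RNA genes at 44.4%, against 3.49% outside small RNA genes.

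A peak crossed the annotated 3′ end in 5 of the 7 genes that held one, and the 5′ end in none of them, if the direction is read against the sign. Read with the sign, the same 5 genes would have a peak across the 5′ end and none across the 3′ end. For Rpph1 that reading would go against its pairing with Parp2, which places it on the minus strand. The 5 were Rn7sk, Rmrp, Rpph1, Rn7s2 and Rny1. Read against the sign, their last peaks ran to nucleotide 333 of 332 in Rn7sk, 279 of 275 in Rmrp, 331 of 325 in Rpph1, 301 of 299 in Rn7s2 and 120 of 111 in Rny1. The overhang was shorter than the 20 nt grid in each. The first peaks of Rn7sk, Rmrp, Rpph1 and Rn7s2 began at nucleotides 34, 20, 32 and 42, whereas that of Rn7s1 lay wholly before the annotated 5′ end, from 34 to 15 nt upstream (-34 to -15). This measure was chosen after the positions had been seen.

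Peaks at that end were not particular to these genes, on the same reading. The share across the 3′ end was 71.4% of the 7 genes (interval 29.0 to 96.3) and 69.5% of 59 ribosomal RNA genes with a peak (interval 56.1 to 80.8). It was 28.1% for small nuclear RNA genes (interval 21.1 to 35.9), 24.3% for small nucleolar RNA genes (interval 16.7 to 33.4) and 14.7% for transfer RNA genes (interval 8.78 to 22.4). At the 5′ end it was 0 of 7 (interval up to 41.0), 8.47% for ribosomal RNA genes and 15.5% for transfer RNA genes. Small nuclear RNA genes stood at 8.5% there and small nucleolar RNA genes at 18.9% (interval 12.1 to 27.5), the latter overlapping their interval at the 3′ end. In genes with 1 peak the direction rests on a single sign, which limits the value for Rny1. The same holds for most genes with a peak in 3 other classes: 107 of 153 small nuclear, 96 of 112 small nucleolar and 107 of 116 transfer RNA genes held a single peak. Of the 59 ribosomal RNA genes with a peak, 11 held 1 and 47 held 2. Their direction, and so the 69.5%, is uncertain too, as 54.0% of the peaks in genes with 1 or more had the opposite sign.

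**Figure D5:**
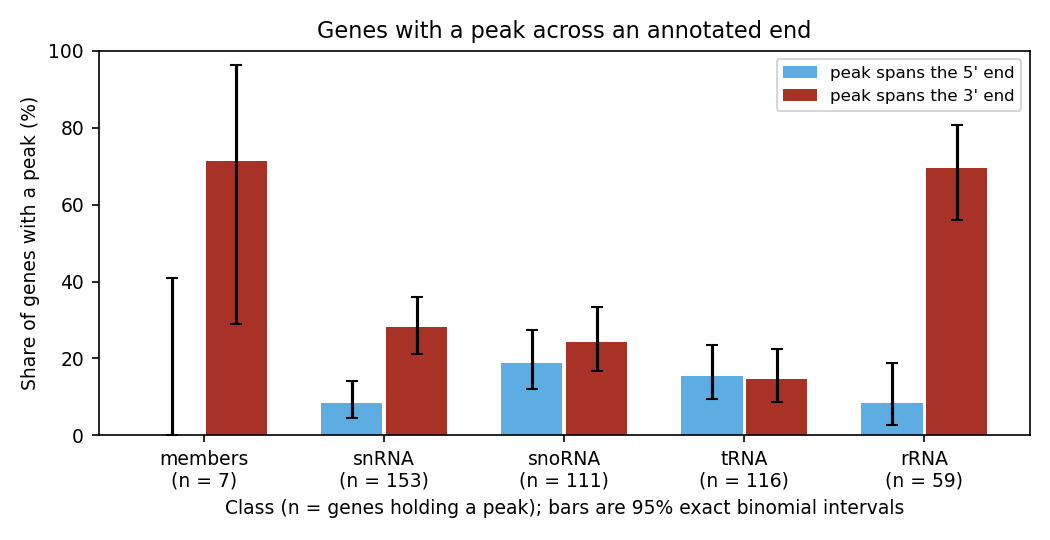
Share of genes holding a peak (%) in which a peak spans the annotated 5′ end (blue) or 3′ end (dark red), by class, with the direction read against the sign most peaks of a gene have; n is the number of genes and error bars are 95% exact binomial intervals. Members are the genes described here that hold a peak: 5 of 7 have a peak across the 3′ end and none across the 5′ end.

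The genes listed as protein partners of these particles, not all of which bind the RNA directly, carried few peaks. Of 39 listed partner genes 4 held a peak (10.3%, interval 2.87 to 24.2), against 26.2% of the 21887 protein-coding genes. Among 7SK partners it was 1 of 7, Cdk9, the kinase of P-TEFb, with 1 peak (7.36-fold, adjusted exact Poisson p = 1). Larp7, Mepce and Hexim1, which stabilise, cap and inhibit with 7SK RNA, held 0. Among 10 genes of the SRP and its receptor, Srp72 and Srp19, which encode proteins of the particle, held 1 peak each (3.66-fold and 16.1-fold, adjusted exact Poisson p = 1 for both). Tert, the reverse transcriptase of telomerase, was the 1 of 9 telomerase genes with a peak (4.91-fold, adjusted exact Poisson p = 1), where its RNA Terc had none. None of the 11 protein genes of RNase P and RNase MRP held a peak (interval up to 28.5), nor did Ro60 and Ssb. Those 11 genes are short, with a median of 6439 nt. The highest number expected in any of them was 0.206 peaks (Pop1), so 0 was the likelier count for each. None of the 39 passed the test, and 0 of them had an unadjusted exact Poisson p under 0.05. Partner genes were shorter than protein-coding genes at large (median 13.9 kb, against 17.2 kb), and the part of length in the share was not tested.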

How the data were processed

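LACE-seq of MTR4 was described for 3 samples of 1 group. Cutadapt 1.15, Bowtie 1.0.0 and build mm10 are named in the submitters' processing notes, with no role given. The name of the deposited list reads as merged, deduplicated and called with Piranha, which no label states; settings are not given in the sources used here. The list as deposited holds start, end and strand sign in 4 columns and no score or count, so no depth per sample and no error between replicates could be given. Coordinates are printed 1-based.

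Peaks were joined to the RefSeq gene table of GRCm38.p6 (the assembly of mm10), for 49943 genes on chromosomes that hold a peak. Strand and sequence came from the RefSeq promoter table of the same assembly. Excess was tested per gene with an exact Poisson test and Benjamini-Hochberg adjustment at a threshold of 0.05. The test was first run on simulated data, with peaks placed uniformly and extra peaks planted at independent positions in short genes. Dependence between neighbouring peaks of 1 RNA was not simulated, so that run does not address it. The other values are descriptions. Python 3.11.15, pandas 2.3.3 and SciPy 1.17.1 were used. Small RNA genes are noncoding, non-pseudogene genes of at most 500 nt other than long noncoding RNA. Named were the 8 genes, their nearest genes, the 5 other genes of at most 500 nt with the most peaks (ties by summed peak width, then name) and partner genes with a peak; other names were chosen after their values were seen. The members and lists were chosen with earlier results of these data known.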

Additional observations from a re-analysis of the deposited data

How the results depend on the processing

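The 8 genes held 20 or 21 peaks whether the window was the gene body alone, 100 nt or 500 nt wider, or any overlap counted, and 7 of them held a peak under each of these settings. Merging peaks of 1 sign less than 100 nt apart left 10 peaks, and keeping only peaks of 40 nt or wider also left 10, by construction of both settings, with a peak in 5 of the genes under the latter. Of the 5 genes in excess, 3 remained with merging (Rpph1, Rn7s1 and Rn7s2) and 3 with wide peaks only (Rn7sk, Rpph1 and Rn7s2). All 5 remained with the chromosome density alone, the density within 50 kb, either other flank, or the majority sign only. Over those 7 alternatives the fold ran from 188 to 1410 for Rn7sk, 151 to 2110 for Rmrp, 143 to 1430 for Rpph1, 201 to 1200 for Rn7s1 and 151 to 1500 for Rn7s2. The nearest other peak lay 169 kb from Rn7sk and 97.8 kb from Rn7s1, so their density within 50 kb came from their own peaks alone. Their folds under that setting, 189 and 201, therefore reflect the lengths of the windows and not a measured background. Rny1 and Rny3 passed under none of the 7 alternatives, and with wide peaks only both fell to 0 peaks and a fold of 0. The number of all genes in excess, 184, moved to 361 with the chromosome density alone, 73 with the density within 50 kb, 65 with merging and 15 with wide peaks only. Partner genes with a peak fell from 4 to 0 with wide peaks only. No paired analysis was possible because the list gives no value per replicate, and for the same reason no replicate could be left out.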

Other observations

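RNAs related to these particles, chosen after their values were seen, held 0 or 1 peak. Of the other genes annotated as RNase P RNA, Rprl2 (chromosome 3) and Rprl3 (chromosome 8) held 1 peak each and Rprl1 (chromosome 6) held 0, whereas Rpph1 held 3. These genes are 235 to 238 nt long, shorter than Rpph1 with 325 nt. Mascrna, a small RNA of 58 nt cut from the end of Malat1, held 1 peak in its window and 0 in its body.

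Within the 8 genes, of the 20 peaks with a midpoint in the body, 6 lay in the first part of the gene when it was cut into 3 equal parts along the direction read against the sign, 5 in the middle part and 9 in the last. Of the 21 peaks, 17 had the plus sign, against 38.7% of all peaks in the list. Each of the 5 genes with several peaks showed a single sign, so these 17 peaks stand for few independent genes.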
